A study of Mus musculus with 2 samples.

Results

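The genes described here are 10 transcription factors that maintain or mark the naive pluripotent state of mouse embryonic stem (ES) cells, among 26127 genes quantitated. They were chosen by name: Pou5f1, Sox2, Nanog, Esrrb, Tfcp2l1, Tbx3, Klf2, Klf4, Klf5 and Zfp42. Of the 10, 9 matched a gene in the files by name, and Tfcp2l1 was found under its older symbol Tcfcp2l1. RNA-seq was available for WT cells, unmodified ES cells with normal H3f3a and H3f3b, and for G34R cells, in which 1 copy of H3f3a was replaced by a targeted H3.3 G34R transgene under the endogenous promoter while H3f3b stayed normal. In both groups the cells were labelled 129S1/SvImJ and grown in serum with leukaemia inhibitory factor (LIF). The G34R line went through gene targeting and Cre-recombinase, steps that the WT cells did not share, which G34R clone was sequenced is not given in the sources used here, and each group is 1 library, so line, clone and genotype cannot be told apart. Values are RPKM, reads per kb of merged transcript corrected for the size of the library, a unit that can be compared between genes, and log2 (G34R/WT RPKM) is positive where G34R cells were higher. There are no replicates, no test of a difference between genotypes was possible, and every interval below covers counting error only.

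In mouse ES cells, Pou5f1 (Oct4), Sox2 and Nanog form the core of the pluripotency network, and Pou5f1 and Sox2 bind DNA side by side at many of its genes. Esrrb, Tfcp2l1, Tbx3 and the Krüppel-like factors Klf2, Klf4 and Klf5 make up a surrounding circuit. It holds cells in the naive state of the early epiblast, and LIF feeds members of it such as Klf4 and Tfcp2l1 through Stat3. Most of this circuit is switched off as cells move on towards the primed epiblast, whereas Pou5f1 and Sox2 stay on for longer. Zfp42, also known as Rex1, is a zinc finger gene used as a marker of the naive state, and it is not needed for ES cells to self-renew.

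The factors went in different directions. Zfp42, Klf2 and Nanog were lower in G34R cells past 2-fold, Klf5 was higher by just over 2-fold, and 6 factors were within 2-fold, among them Pou5f1, Sox2 and Esrrb, which lay within 0.05 of 0 on the log2 scale. All 10 factors had at least 10 RPKM in 1 or both libraries. Of the 3467 genes that reached that level, 3.87% were lower and 3.37% were higher past 2-fold, and of the 10728 genes with at least 1 RPKM in 1 library, 6.42% and 4.09% were. The factors thus held 3 of 10 lower and 1 of 10 higher, beside these shares. This is no test, because the factors were chosen with earlier results of these data known. The median log2 (G34R/WT RPKM) of the factors, -0.04, lay close to the median of -0.05 over the 10728 genes, while their mean was -0.50. Zfp42, at -3.46, lay furthest from 0 and weighed most on that mean, and no mean over all genes was worked out. The interquartile range over the 10728 genes was -0.35 to 0.25, and 4 factors lay below it, 3 above it and 3 inside it. In bulk RNA, fewer cells that express a gene and less RNA per cell cannot be told apart.

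**Figure D1:**
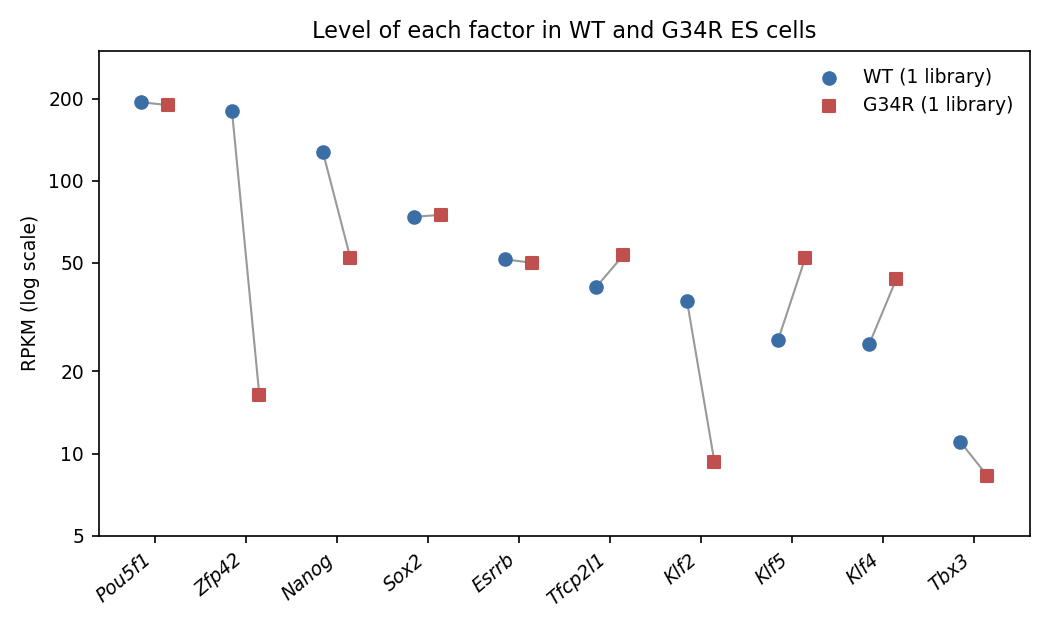
RPKM (log scale) of the 10 factors in the WT library (circles) and the G34R library (squares), ordered by level in WT cells, with a line joining the 2 values of each gene. Zfp42 lay at 180.3 RPKM in the WT library and 16.4 RPKM in the G34R library, Klf2 at 36.1 and 9.34 RPKM and Nanog at 127 and 52.2 RPKM, while Klf4 and Klf5 lay higher in G34R cells.

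The sources used here give no read totals. Low RPKM values in short genes without introns are whole multiples of what 1 read is worth, which put the depth at an estimated 87900000 reads for WT cells and 72200000 reads for G34R cells. The targeted gene H3f3a had 8.17 RPKM in the WT library and 4.89 RPKM in the G34R library, a log2 ratio of -0.74, which does not separate the mutant allele from the normal one. The cells carried the RNA of ES cells in both libraries, with the level of Pou5f1 above that of 99.6% of genes in the WT library and of 99.7% in the G34R library. Of 14 housekeeping genes none was past 2-fold, and their median log2 ratio was -0.24, or 0.04 over those with at least 10 RPKM in 1 library. The highest of them were Eef1a1, an elongation factor of translation (1236 and 1143 RPKM in WT and G34R cells), and Actb, cytoplasmic actin (594 and 715 RPKM).

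Pou5f1 (ENSMUSG00000024406, chr17:35642982-35647721 in mm9, plus strand), the POU-domain factor without which ES cells leave the pluripotent state, was the highest of the 10 factors in both libraries. It had 194 RPKM in the WT library and 189 RPKM in the G34R library, from about 38538 and 30860 reads, and its log2 ratio was -0.04 (counting interval -0.06 to -0.02). Sox2 (ENSMUSG00000074637, chr3:34548927-34551383, plus strand), its HMG-box partner, is encoded in a single exon. It had 73.8 RPKM in the WT library and 75.1 RPKM in the G34R library, a log2 ratio of 0.02 (-0.01 to 0.06). Neither gene of the pair lay further than 0.05 from 0 on the log2 scale, and the sign of the Pou5f1 value turned when the libraries were scaled to the same RPKM sum or the same median. The ratio of Sox2 to Pou5f1 within a library, which no scaling of the library can move, was 0.380 in WT cells and 0.396 in G34R cells.

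Nanog (ENSMUSG00000012396, chr6:122657507-122664651, plus strand), the homeodomain factor of the core, did not keep pace with the other two. It had 127 RPKM in the WT library and 52.2 RPKM in the G34R library, from about 25042 and 8456 reads, and was thus 2.43-fold lower, with a log2 ratio of -1.28 (-1.32 to -1.25). Of the genes with at least 10 RPKM, 4.56% had a log2 ratio at least as far from 0, and Nanog stood at rank 95 of 3467 from the lowest. Within a library, Nanog stood at 0.654 of the Pou5f1 level in WT cells and at 0.276 in G34R cells. It went from the third to the fifth place among the 10 factors. Pou5f1 and Nanog have processed pseudogenes elsewhere in the genome, and since a read that matches several places counts only at its primary alignment, reads shared with these copies make both levels uncertain.

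Zfp42 (ENSMUSG00000051176, chr8:44380422-44392363, minus strand) showed the widest difference of the 10. With 180.3 RPKM in WT cells it was the second highest factor there, close to Pou5f1, and ranked 101 of all 26127 genes. In G34R cells it had 16.4 RPKM and ranked 1888. These values came from about 28527 and 2131 reads, and the level was 11.0-fold lower in G34R cells, with a log2 ratio of -3.46 (-3.52 to -3.40). Among the 3467 genes with at least 10 RPKM it stood at rank 16 from the lowest log2 ratio, and 0.577% lay as far from 0 in either direction. At 16.4 RPKM, Zfp42 was still above 92.8% of all genes in G34R cells. Its ratio to Pou5f1 was 0.928 in WT cells and 0.0866 in G34R cells. Without Zfp42, the summed level of the other factors was 586 RPKM in the WT library and 534 RPKM in the G34R library, and with it 766 and 550 RPKM.

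The sequences just upstream of Zfp42 and Nanog are shown because both genes were lower while Pou5f1 and Sox2 were not, and because the first holds the octamer, which Pou5f1 is known to bind, and the second the joined motif of Pou5f1 and Sox2. They come from the RefSeq promoter table (build GRCm38.p6) and were found once each in mm9, where each ends at the base before the annotated start of the gene. Capitals mark matches, on either strand, to the motifs searched for: the octamer ATGCAAAT, the Sox motif CATTGT, the composite of CATTGT, 1 free base and ATGCAA, the Esrrb motif CAAGGTCA, the Klf motif GGGNGTGG and the STAT motif TTCCNGGAA.
Zfp42, chr8:44392364-44392613, minus strand: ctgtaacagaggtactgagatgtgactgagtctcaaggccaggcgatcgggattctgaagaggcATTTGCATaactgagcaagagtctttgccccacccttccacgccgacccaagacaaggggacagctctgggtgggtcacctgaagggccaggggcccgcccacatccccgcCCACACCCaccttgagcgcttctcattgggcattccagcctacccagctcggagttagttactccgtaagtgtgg
Nanog, chr6:122657257-122657506, plus strand: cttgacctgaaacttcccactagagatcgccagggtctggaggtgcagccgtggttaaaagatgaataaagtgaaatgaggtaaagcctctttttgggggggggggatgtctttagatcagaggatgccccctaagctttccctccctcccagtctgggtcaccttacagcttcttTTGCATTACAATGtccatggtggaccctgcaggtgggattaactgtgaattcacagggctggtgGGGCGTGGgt
In Zfp42 the capitals are an octamer, ATTTGCAT, 186 to 179 bases before the start, and a Klf motif, CCACACCC, 75 to 68 bases before it. In Nanog they are the composite of octamer and Sox letters, TTGCATTACAATG, 74 to 62 bases before the start, inside which the Sox motif lies, and a Klf motif, GGGCGTGG, 10 to 3 bases before it. A second RefSeq start of Nanog lies 76 bases further downstream, and from there the composite is 150 to 138 bases upstream.

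Over the 250 bases upstream of all RefSeq starts, the composite was found in 3 of 27025 genes, the octamer in 1.81%, the Sox motif in 12.2%, the Esrrb motif in 1.51%, the Klf motif in 17.9% and the STAT motif in 1.09%. The composite asked only for ATGCAA, the start of the octamer, and Nanog held no match to the full octamer. The table held a promoter for 8 of the 10 factors. Of these 8, Nanog held the composite, Zfp42 the octamer, and Nanog and Pou5f1, the latter upstream of a second start inside the gene, the Sox motif. The Klf motif was found in Nanog, Pou5f1, Tfcp2l1 and Zfp42. Klf2, Klf4, Sox2 and Esrrb held none of the 6 motifs. Whether any motif bears on the differences in level was not tested. The Esrrb and STAT motifs were found in none of the 8. A match is a run of letters and not a measured binding site, enhancers were not searched, and no binding data were analysed here.

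**Figure D2:**
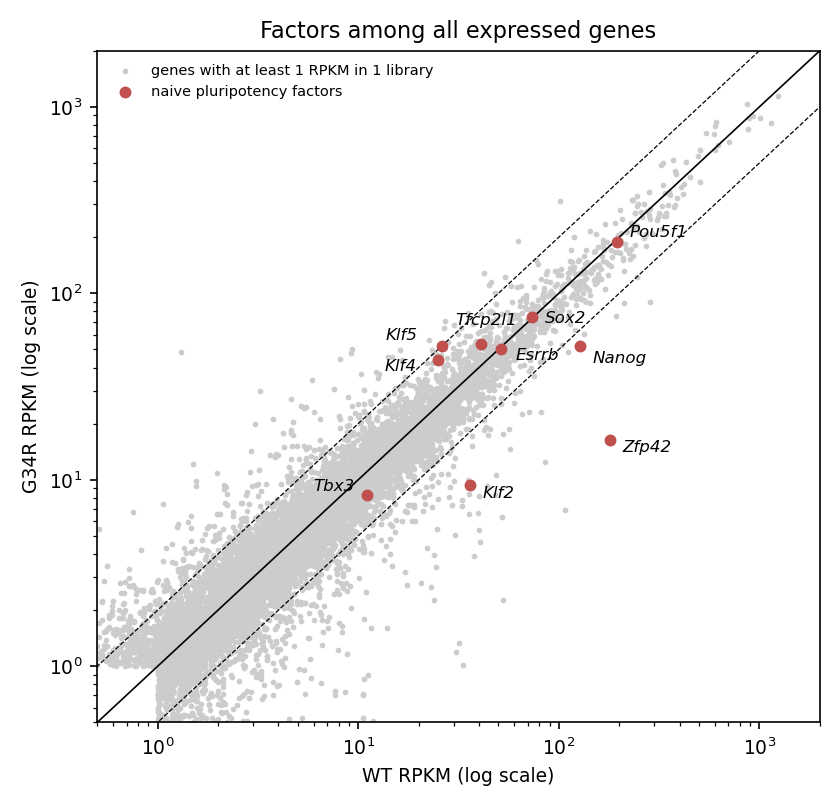
RPKM in the G34R library against RPKM in the WT library (both log scale) for genes with at least 1 RPKM in 1 library (grey) and the 10 factors (red); the solid line marks equal levels, the dashed lines mark 2-fold, and genes under 0.5 RPKM in a library fall outside the axes. Zfp42, Klf2 and Nanog lie below the lower dashed line, Klf5 lies on the upper one, and Pou5f1, Sox2 and Esrrb lie on the line of equal levels.

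Esrrb (ENSMUSG00000021255, chr12:87702067-87862578, plus strand), an orphan nuclear receptor that can stand in for Nanog in ES cells, had 51.5 RPKM in the WT library and 50.1 RPKM in the G34R library. Its log2 ratio was -0.04 (-0.07 to -0.02), close to that of Pou5f1 and likewise of either sign depending on the scaling, and its ratio to Pou5f1 was 0.265 in WT cells and 0.264 in G34R cells. Tfcp2l1 (ENSMUSG00000026380, chr1:120524522-120581744, plus strand), a factor of the CP2 family that acts downstream of LIF and Stat3, had 40.8 RPKM in the WT library and 53.4 RPKM in the G34R library. That is 1.31-fold higher, a log2 ratio of 0.39 (0.37 to 0.41), and 35.2% of genes with at least 10 RPKM lay as far from 0. Tbx3 (ENSMUSG00000018604, chr5:120120678-120134733, plus strand), a T-box factor, was the lowest of the 10 in both libraries. It had 11.1 RPKM in the WT library and 8.28 RPKM in the G34R library, a log2 ratio of -0.42 (-0.48 to -0.35), and 32.4% of the same genes lay as far from 0. Of these members of the circuit, none was past 2-fold, and Esrrb, Tfcp2l1 and Tbx3 did not share a direction.

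The Krüppel-like factors went in opposite directions. Klf2, Klf4 and Klf5 share a zinc finger domain and many target genes in ES cells, where they can partly replace each other. Klf2 (ENSMUSG00000055148, chr8:74842932-74845555, plus strand) had 36.1 RPKM in the WT library and 9.34 RPKM in the G34R library, from about 5864 and 1246 reads. It was 3.87-fold lower, a log2 ratio of -1.95 (-2.04 to -1.86), and stood at rank 48 from the lowest ratio among the 3467 genes with at least 10 RPKM.

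Klf4 (ENSMUSG00000003032, chr4:55540013-55545347, minus strand), a target of Stat3, had 25.1 RPKM in the WT library and 43.7 RPKM in the G34R library. It was 1.74-fold higher, a log2 ratio of 0.80 (0.75 to 0.84), short of 2-fold. Klf5 (ENSMUSG00000005148, chr14:99697910-99712624, plus strand) had 26.1 RPKM in the WT library and 52.4 RPKM in the G34R library. It was 2.01-fold higher, a log2 ratio of 1.01 with a counting interval of 0.95 to 1.06 that spans the threshold, and with 1 RPKM added to both values it was 0.98. Of the genes with at least 10 RPKM, 11.1% lay as far from 0 as Klf4 and 7.12% as far as Klf5.

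The summed level of these 3 factors was 87.3 RPKM in the WT library and 105 RPKM in the G34R library, while its make-up differed. Klf2 gave 41.4% of the sum in WT cells and 8.86% in G34R cells, Klf4 28.8% and 41.5%, and Klf5 29.9% and 49.7%. Klf2 was thus the highest of the 3 in WT cells and the lowest in G34R cells. The ratio of Klf2 to Klf5 within a library was 1.38 in WT cells and 0.178 in G34R cells, whereas the ratio of Klf4 to Klf5 was 0.964 and 0.835.

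The rest of the family, looked at after these values were seen, did not show differences of this size. Of 14 other Klf genes, 10 had at least 1 RPKM in 1 library. None of the 10 was past 2-fold, and their median log2 ratio was 0.01. Over all genes with at least 1 RPKM in 1 library, 6.42% were lower and 4.09% higher past 2-fold. At such shares, finding none among 10 genes says little about this family. The highest were Klf9, with 21.5 RPKM in the WT library and 23.0 RPKM in the G34R library, and Klf10, with 19.1 and 21.0 RPKM. The other Klf gene furthest from 0 among the 10 was Klf8, with 5.21 and 3.24 RPKM, a log2 ratio of -0.69.

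**Figure D3:**
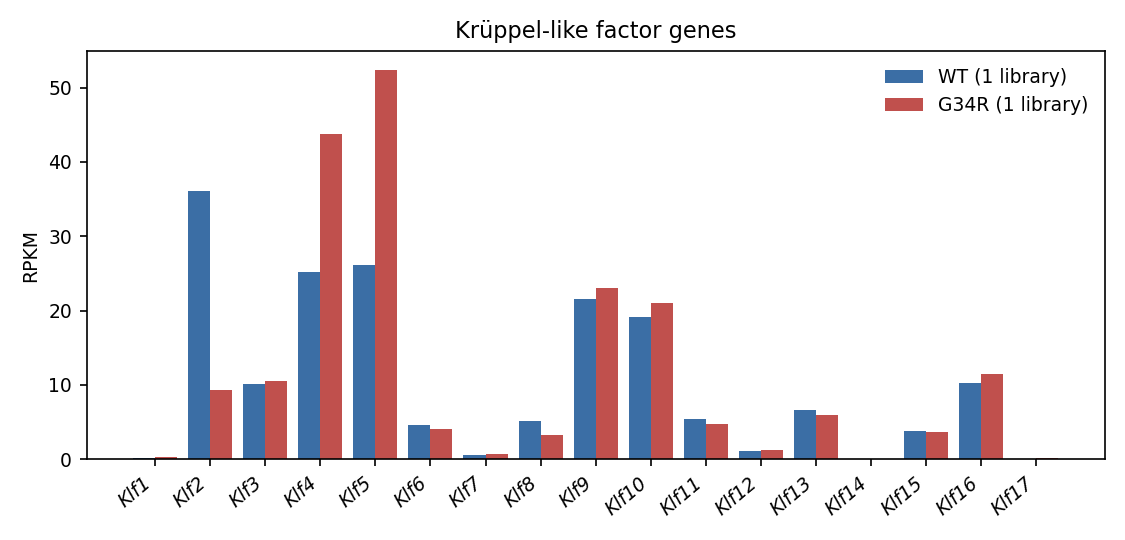
RPKM of the 17 Krüppel-like factor genes in the WT library (blue bars) and the G34R library (red bars), 1 library each and without error bars. Klf2 is the highest bar of the family in WT cells at 36.1 RPKM, and Klf5 the highest in G34R cells at 52.4 RPKM.

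In the order of levels, WT cells ran from Pou5f1 through Zfp42, Nanog, Sox2, Esrrb, Tfcp2l1, Klf2, Klf5 and Klf4 to Tbx3. In G34R cells the order was Pou5f1, Sox2, Tfcp2l1, Klf5, Nanog, Esrrb, Klf4, Zfp42, Klf2 and Tbx3. Between neighbours in this order, the counting intervals overlapped for Klf5 (25.3 to 26.9 RPKM) and Klf4 (24.5 to 25.7 RPKM) in WT cells. In G34R cells they overlapped among Tfcp2l1 (52.8 to 53.9 RPKM), Klf5 (51.1 to 53.6 RPKM) and Nanog (51.1 to 53.4 RPKM). Without replicates, the spread between cultures that would decide the other places is unknown.

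Zfp42 and Klf2 both lie on chromosome 8, where the median log2 ratio over 595 genes was 0.36, against -0.05 over all 10728 genes. The genes around each differed. Within 500 kb of the start of Klf2 lay 17 genes with at least 1 RPKM in 1 library, and 15 of them were higher in G34R cells, with a median log2 ratio of 0.46. Examples on either side are Rab8a, a small GTPase of membrane traffic (5.24 and 9.25 RPKM in WT and G34R cells), and Cherp (15.8 and 26.1 RPKM). Around Klf2 on the upstream side lay Zfp709, Zfp882, Zfp617, Zfp961, Tpm4, Rab8a, Fam32a, Ap1m1 and Gm10282, and on the downstream side Eps15l1, 1700030K09Rik, Cherp, Slc35e1, Med26, 9130011J15Rik, Tmem38a and Sin3b. The lowest ratio among them was -0.86 (Zfp961), so Klf2, at -1.95, lay below all genes of this window. Within 1000 kb lay 38 genes, of which 1 was lower past 2-fold, with a log2 ratio of -4.48, and 6 were higher. Set against the median of its own chromosome, its log2 ratio was -2.31.

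Around Zfp42 the picture was the reverse. Within 500 kb of its start lay only 2 genes with at least 1 RPKM in 1 library, the Trim-like genes Triml1 and Triml2, both downstream of it. Triml2, whose start lay 126 kb away, had 35.9 RPKM in the WT library and 6.57 RPKM in the G34R library, a log2 ratio of -2.45. Triml1, at 166 kb, had 14.8 and 5.64 RPKM, a log2 ratio of -1.39. All 3 genes of this stretch were therefore lower past 2-fold on a chromosome whose median was higher. With 2 neighbours and 1 library per line, no test of a regional difference was made.

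Near Nanog lay 9 such genes, with a median log2 ratio of -0.24, and none was past 2-fold. Of these, 8 were lower in G34R cells: M6pr, Phc1, Rimklb, Apobec1, Gdf3, Dppa3, Slc2a3 and Necap1, while Foxj2, at 0.74 and 1.48 RPKM, was higher by exactly 2-fold. Nearest to 2-fold among the lower ones was Dppa3 (Stella), a maternal factor that protects DNA methylation, which lies 81.1 kb upstream of Nanog. It had 7.94 RPKM in the WT library and 3.98 RPKM in the G34R library and was 1.99-fold lower. Gdf3, a TGF-beta family ligand 97.4 kb upstream, had a log2 ratio of -0.26. Near Klf5 lay Mzt1, 6720463M24Rik, Dis3 and Pibf1, with a median log2 ratio of 0.14 and a range of 0.03 to 0.37, all under that of Klf5.

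**Figure D4:**
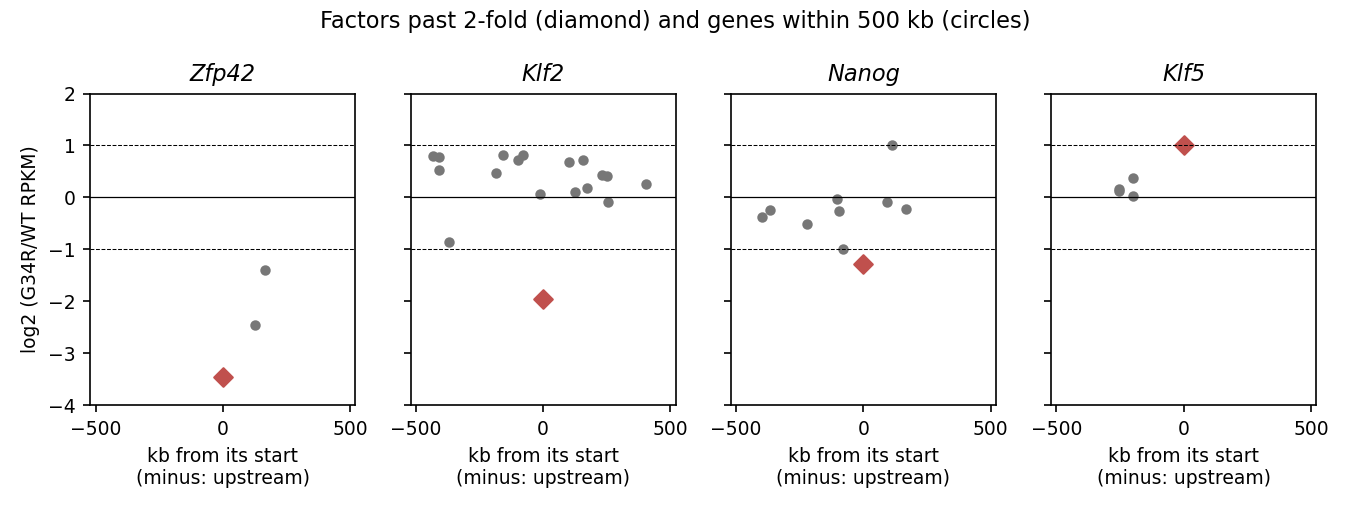
log2 (G34R/WT RPKM) of Zfp42, Klf2, Nanog and Klf5 (red diamonds) and of the genes with at least 1 RPKM in 1 library whose start lies within 500 kb (grey circles), against the distance in kb from the start of each factor, with dashed lines at 2-fold. The 2 genes near Zfp42 lie below the lower dashed line, while 15 of the 17 genes near Klf2 lie above 0.

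With 2 libraries the only pattern a gene can share with a factor is its ratio, and among genes with at least 10 RPKM the nearest 5 were taken for each factor past 2-fold. Nearest to Zfp42 were Tuba3a (23.7 and 2.26 RPKM in WT and G34R cells), Pnma5, Lefty2, Gm5635 and Gm15564, within 0.33 on the log2 scale. Lefty2, an inhibitor of Nodal, had 37.8 and 3.89 RPKM. Nearest to Klf2 were Klhl13, Morc1, Crmp1, Gm5292 and 2410004A20Rik, within 0.11. Nearest to Nanog were Twf2, Stmn1, Zfp534, Hist1h2ba and Gm13051, within 0.016, and nearest to Klf5 were Abhd4, Junb, Arcn1, Ncapd2 and 5430437P03Rik, within 0.0057.

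Other genes of naive ES cells were mostly within 2-fold, as were most genes at large. Of the 10728 genes with at least 1 RPKM in 1 library, 6.42% were lower and 4.09% higher past 2-fold. These shares also stand beside the counts of the lists below that ask for this level. Of 22 such factors and markers, all of which had at least 1 RPKM in 1 library, 2 were lower and 1 was higher past 2-fold, with a median log2 ratio of -0.21. The lower ones were Tcl1, a co-activator of Akt (28.4 RPKM in the WT library and 8.04 RPKM in the G34R library), and Fbxo15, an F-box gene used as a reporter of the ES cell state (65.5 and 22.5 RPKM). The higher one was Gbx2, a homeobox gene induced by LIF and Stat3 (2.75 and 8.34 RPKM). The most abundant were Dppa5a (708 and 648 RPKM) and Tdgf1, a co-receptor of Nodal (261 and 256 RPKM).

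The LIF pathway feeds Klf4 and Tfcp2l1 through Stat3. Of its 14 listed genes, 13 had at least 1 RPKM in 1 library, 1 was lower and 1 was higher past 2-fold. The median log2 ratio was 0.16, or 0.32 over those with at least 10 RPKM in 1 library. That filter favours higher genes, since Lifr (9.87 and 12.3 RPKM in WT and G34R cells) and Junb passed it in G34R cells alone. Jak2, a kinase of cytokine receptors, had 1.46 RPKM in the WT library and 0.61 RPKM in the G34R library. Junb, a partner in the AP-1 complex that lies on chromosome 8, had 8.83 and 17.7 RPKM. The most abundant were Pim3, a kinase (43.8 and 58.3 RPKM), and Socs3, the feedback inhibitor induced by Stat3 (36.6 and 38.6 RPKM).

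Genes of the FGF, ERK and BMP pathways pull ES cells away from or towards the naive state. Of 15, 4 were higher and 1 was lower past 2-fold, with a median log2 ratio of 0.38. Over those with at least 10 RPKM in 1 library the median was 1.49. That filter favours higher genes, since Dusp6, Id1, Bmp4 and Mapk3 (6.80 and 11.0 RPKM) passed it in G34R cells alone. Dusp6, a phosphatase that ERK induces against itself, had 5.87 RPKM in the WT library and 34.4 RPKM in the G34R library. Id1, a BMP target that blocks differentiation factors, had 9.22 and 48.0 RPKM, Bmp4 had 4.29 and 15.0 RPKM, and Spry2, a feedback inhibitor of receptor kinases, had 12.6 and 35.3 RPKM. Id3 was the lower one, with 3.59 and 1.77 RPKM. The next list held repressors and exit factors of the naive state along with genes that do not drive exit, such as Ctnnb1 and Ncoa3. In it, 13 of 15 genes found had at least 1 RPKM in 1 library. Only Etv4, an ETS factor and ERK target, was past 2-fold among them, with 14.1 RPKM in the WT library and 45.3 RPKM in the G34R library, and the median was -0.05, or 0.04 with each gene centred on its chromosome. The most abundant of them were Ctnnb1, beta-catenin (89.7 and 78.2 RPKM), and Etv5 (54.3 and 31.1 RPKM).

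Genes of the primed epiblast, the state that follows the naive one, were lower in G34R cells or within 2-fold. Of all 17 such genes, 7 were lower and none was higher past 2-fold, without a share over all genes to set beside them. The 7 include Fgf5, at 0.12 RPKM in the WT library and 0 RPKM in the G34R library. Its ratio therefore depends on the floor set for low RPKM. Of the 17, 3 had a log2 ratio above 0, and the median was -0.88. Over the 11 with at least 1 RPKM in 1 library, of which Lef1 and Zic2 reached it in WT cells alone, the median was -1.70, or -0.83 with 1 RPKM added to both values. The 6 of these 11 past 2-fold were Lefty2, Lefty1 (39.9 RPKM in the WT library and 5.39 RPKM in the G34R library), which is also an inhibitor of Nodal, Lef1, a Wnt effector (1.08 and 0.20 RPKM), Otx2, a homeobox factor of the primed state (5.59 and 1.42 RPKM), Zic2 (2.01 and 0.52 RPKM) and Zic5 (3.52 and 1.08 RPKM). Dnmt3b, a DNA methyltransferase that is among the most abundant of the list, had 34.1 and 32.1 RPKM.

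Markers of other cell types also differed between the libraries, and their part in the differences above was not tested. Of all 16 primitive endoderm markers, 13 had a log2 ratio above 0 and 2 below it, with 4 higher and 1 lower past 2-fold and a median of 0.69. The lower one was Hnf4a, at 0.56 and 0.06 RPKM in WT and G34R cells. Among the higher ones, Sox17 (0.18 and 0.56 RPKM) and Amn (0.38 and 0.90 RPKM) stayed under 1 RPKM in both libraries. For these counts, too, no share over all genes without a filter was worked out. A count over detected markers alone would favour the higher ones, since 3 of the 8 markers with at least 1 RPKM in 1 library reached it in G34R cells alone, among them Gata4 (0.50 and 1.18 RPKM) and Gata6 (0.30 and 1.09 RPKM). The summed level of the 16 was 67.1 RPKM in the WT library and 107 RPKM in the G34R library, most of it from Sparc (31.7 and 53.4 RPKM) and Lama1 (11.6 and 20.3 RPKM), which code for matrix proteins, and Afp was at 0 in both libraries. Of 13 trophoblast markers found, 6 had at least 1 RPKM in 1 library, with a median log2 ratio of 0.02, or 0.82 over all 13. Of these 6, Eomes (0.43 and 1.88 RPKM) and Tead4 (2.60 and 7.51 RPKM) were higher past 2-fold, and Ascl2 (3.18 and 1.16 RPKM) was lower. Eomes reached 1 RPKM in G34R cells alone, so the filter favours it. Over all 13, 3 were lower and 3 higher past 2-fold, again without a share over all genes to set beside them. The most abundant were the keratins Krt18 (8.94 and 5.22 RPKM) and Krt8 (8.40 and 4.37 RPKM). The sum was 26.6 and 25.2 RPKM, with Prl3d1 at 0 in both.

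Of 14 fibroblast and feeder markers, 6 had at least 1 RPKM in 1 library, 3 of them in WT cells alone, with a median log2 ratio of -0.98, or -0.63 with 1 RPKM added and -0.29 over those with at least 10 RPKM, and 2 were lower past 2-fold, Vim, the intermediate filament vimentin (42.5 RPKM in the WT library and 18.5 RPKM in the G34R library), and Tagln (1.93 and 0.51 RPKM). Their sum was 93.7 and 85.7 RPKM, mainly from Vim and from Fn1, fibronectin (40.9 and 62.6 RPKM), while Postn, Lum, Dcn and S100a4 were at 0 in both libraries. Of 11 neural and mesoderm markers found, 3 had at least 1 RPKM in 1 library, with a median log2 ratio of 0.20. Where at least 10 RPKM was asked for, Tubb3 alone was left, at -2.09. Over all 11 the median was 0.74, the ratio of T at 0.03 and 0.05 RPKM in WT and G34R cells. The markers under 1 RPKM reached at most 0.22 RPKM (Tbx6 in G34R cells), so that median rests on very low levels. Tubb3, a neuronal tubulin, was the only 1 of the 3 past 2-fold (35.6 and 8.36 RPKM). Neurod1 had 2.01 and 3.91 RPKM, and the sum of the list was 39.5 RPKM in the WT library and 14.5 RPKM in the G34R library.

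**Figure D5:**
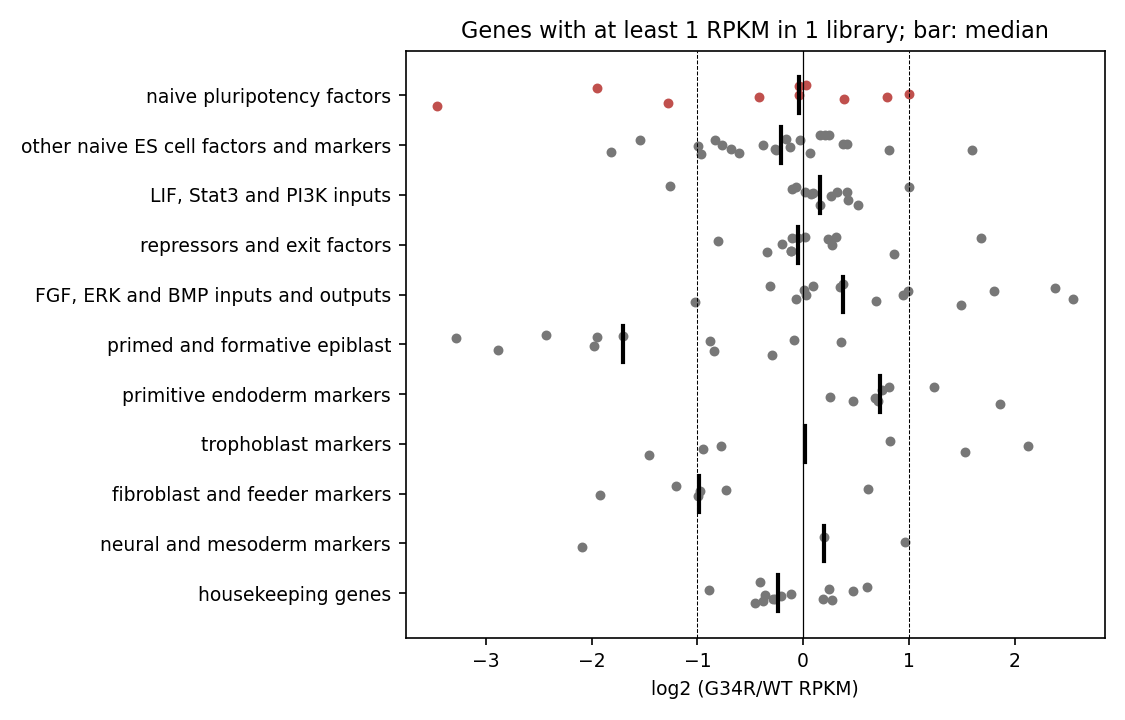
log2 (G34R/WT RPKM) of the 10 factors (red) and of the genes with at least 1 RPKM in 1 library in 10 further lists (grey), 1 point per gene with vertical offsets only to keep points apart, with a bar at the median of each list and dashed lines at 2-fold. The factors spread from -3.46 to 1.01 around a median of -0.04, while the 11 primed epiblast genes shown have their median at -1.70.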

How the data were processed

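RNA from WT and G34R mouse ES cells was sequenced as 1 library per line, in stranded single reads of 50 bp. With STAR 2.4.2a (mm9) and Seqmonk, the authors quantitated primary alignments by strand over merged isoforms, with a length correction, and the deposited values are RPKM with 2 decimals. Because RPKM divides by the library total, a shift in a few abundant genes moves all others, and merged isoforms hide a change of promoter or splicing.

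For ratios, RPKM below 0.01 was raised to 0.01, and lists and backgrounds used genes with at least 1 RPKM in 1 library. "Past 2-fold" is a size and not a test. Reads were estimated from RPKM, the merged exon length in GENCODE M1 (mm9) and a depth found from genes of 200 to 800 bp whose RPKM lay on whole steps of up to 5 reads. Exact 95% intervals from these reads (Clopper-Pearson for ratios, Poisson for levels) cover counting error only. The depth and ratio scripts were tested on simulated data.

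Named genes are the 10 factors, in each further list those past 2-fold (at most 6) and the 2 with the highest mean RPKM, and, for each factor past 2-fold, its neighbours within 500 kb and the 5 genes nearest in ratio. The factors and lists were chosen with earlier results of these data known. Other pseudocounts, scalings, filters, thresholds and windows were tried. Python 3.11.15, NumPy 2.4.6, pandas 2.3.3, SciPy 1.17.1 and matplotlib 3.10.9 were used.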

Additional observations from a re-analysis of the deposited data

How the results depend on the processing

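Zfp42, Klf2 and Nanog were lower past 2-fold under every pseudocount, rescaling and centring tried, and 8 of the 10 factors kept their direction under all 5. Pou5f1 and Esrrb, near 0, changed sign on rescaling. The median over the factors was 0.00673 with both libraries set to the same RPKM sum, 0.0151 with the median ratio of genes with at least 10 RPKM in both libraries set to 0, and 0.0148 with each gene centred on its chromosome. The factors higher past 2-fold numbered 0 with a pseudocount of 1 RPKM, since Klf5 then had a log2 ratio of 0.98, 2 at 1.5-fold, with Klf4 added, and 0 at 3-fold. At 1.5-fold 3 factors were lower and at 3-fold 2, Zfp42 and Klf2. Of the 10728 genes, 14.1% were lower and 11.3% higher past 1.5-fold, and 3.29% and 1.57% past 3-fold. Over the 10 further lists, 14 of 111 genes were lower and 11 higher past 2-fold, beside 6.42% and 4.09% of all genes. A pseudocount of 1 RPKM gave 8 lower and 8 higher, and no filter on low RPKM, over all 151 genes found, gave 24 and 17. A filter of 10 RPKM gave 6 and 6, beside 3.87% and 3.37% of all genes at that level. The number of listed genes that passed this filter was not worked out. The shares over all genes were not worked out with that pseudocount or without a filter. With each gene centred on its chromosome, the median of the other naive genes was -0.13 and that of the housekeeping genes -0.12. With a pseudocount of 1 RPKM the trophoblast median was -0.02. Within 200 kb the neighbours had a median log2 ratio of -0.15 for Nanog, 0.69 for Klf2 and 0.20 for Klf5. No paired analysis was possible because each group is 1 library. Depth limits little here, since every factor rests on over 1000 estimated reads per library, while the lack of replicates limits every comparison.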
